A study of Mus musculus with 6 samples.

Results

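The intergenic chromatin regions listed as open in every palatal mesenchyme library, and in no palatal epithelium library, numbered 3583 of 707876 merged regions. They were chosen by the measured peaks themselves: the ATAC-seq peaks of 6 libraries were joined where they overlapped by 1 bp or more, and a joined region was kept if it held a peak of each of the 3 mesenchyme libraries, held no peak of the 3 epithelium libraries, covered no start of a protein-coding transcript, and had its midpoint outside every protein-coding gene body. ATAC-seq uses a transposase that cuts accessible DNA, so a peak marks a stretch of open chromatin. The palatal shelves came from C57BL/6 mouse embryos at E14.5, and after trypsin treatment the epithelium was peeled off by hand. The epithelium libraries hold basal cells together with the outermost layer, the periderm, whereas the mesenchyme libraries hold the tissue that was left, which was largely but not wholly mesenchymal. About 20000 cells went into a library, no genotype or treatment differed between the groups, and the number of embryos or shelves behind a replicate is described differently in the protocols and the methods. Where nothing shows that replicates came from separate embryos, p-values measure only the spread between these libraries. In tissue of mixed cells, fewer cells of a type and less open chromatin per cell cannot be told apart.

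Open regions between genes, like those within introns, include many enhancers, the DNA elements that bind transcription factors and act on promoters at a distance. The palatal mesenchyme descends mainly from cranial neural crest, and it forms the connective tissue core of the shelves and later the bone of the hard palate. Its growth is known to depend on homeobox, T-box and Twist-family transcription factors and on BMP, TGF-beta, Wnt, Hedgehog and endothelin signals, and RUNX factors, RUNX2 above all, are required for the formation of bone.

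The labels could be compared with marker genes through regions of any position within 100 kb of them. The 8 mesenchyme markers had 16 mesenchyme-only regions and 2 epithelium-only regions, and the 8 epithelium markers had 7 and 19. Of the other cell types, the 6 endothelial markers had 9 mesenchyme-only and 5 epithelium-only regions, the 6 immune markers 7 and 3, the 6 muscle markers 3 and 1, the 6 nerve and glia markers 1 and 4, and the 6 erythroid markers 1 and 2. In all, 7554 regions of any position were mesenchyme-only, among 342690 found in at least 2 libraries. No background share stands beside these marker counts, so they show no excess by themselves. Starts of 6 to 7 of the 8 epithelium markers had a peak in the mesenchyme libraries, against 8 in each epithelium library. Starts of the 8 mesenchyme markers differed little, with 7 to 8 open in mesenchyme libraries and 6 to 8 in epithelium libraries. In the same order, 3 to 4 and 2 to 3 of the 6 endothelial starts were open, and 3 to 4 of the immune starts in both tissues. Muscle markers had 4 to 6 and 2 to 5 open starts. Nerve and glia markers had 4 and 4 to 5, and erythroid markers 2 to 3 and 3 to 4. Among the 3583 intergenic regions, 2 flanked an endothelial marker (0.0558%, against 0.0687% of the background regions defined below) and 3 an immune marker (0.0837% against 0.0343%), and no region flanked a muscle, nerve and glia or erythroid marker. The part of these cells in the regions was not tested.

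The sequences below are those of the central 200 bp of 10 regions, the stretch that was searched for motifs. The first is the region with the longest stretch shared by the 3 mesenchyme libraries. The others were picked after their matches were known, the last pair as the regions closest to the starts of Axin2 and Frzb and the rest for a RUNX match near a gene of the mesenchyme lists described further on. Bases are given on the plus strand of GRCm38 (mm10), read from its RefSeq copy, and capitals mark the letters TGTGGTT or their complement AACCACA for RUNX, TTGGCA or TGCCAA for the NF1 half-site, and TAATTA for the core bound by many homeobox factors.
Rai14, longest shared stretch, chr15:10735927-10736126: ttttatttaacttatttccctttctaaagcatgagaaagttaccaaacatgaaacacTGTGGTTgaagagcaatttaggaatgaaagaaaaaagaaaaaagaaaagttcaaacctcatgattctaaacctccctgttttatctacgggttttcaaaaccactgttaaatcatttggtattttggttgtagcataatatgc
Lhx8, first region, chr3:154372484-154372683: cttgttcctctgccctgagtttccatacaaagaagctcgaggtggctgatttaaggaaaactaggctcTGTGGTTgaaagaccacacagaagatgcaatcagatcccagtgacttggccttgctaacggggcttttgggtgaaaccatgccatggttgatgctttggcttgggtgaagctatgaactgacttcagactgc
Lhx8, second region, chr3:154407244-154407443: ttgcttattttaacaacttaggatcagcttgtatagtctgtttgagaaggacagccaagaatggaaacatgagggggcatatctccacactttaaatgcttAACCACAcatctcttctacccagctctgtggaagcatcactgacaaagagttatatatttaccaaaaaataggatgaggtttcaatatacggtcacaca
Msx1, chr5:37767611-37767810: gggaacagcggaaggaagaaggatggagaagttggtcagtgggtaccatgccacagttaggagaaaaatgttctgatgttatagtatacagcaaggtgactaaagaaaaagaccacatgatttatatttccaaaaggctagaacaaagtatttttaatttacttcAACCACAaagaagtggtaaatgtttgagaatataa
Foxd1, chr13:98447831-98448030: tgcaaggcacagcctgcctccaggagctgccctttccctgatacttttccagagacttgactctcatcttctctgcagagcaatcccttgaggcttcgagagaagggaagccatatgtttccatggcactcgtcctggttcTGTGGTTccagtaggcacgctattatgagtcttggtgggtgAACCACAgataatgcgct
Thbs2, chr17:14748437-14748636: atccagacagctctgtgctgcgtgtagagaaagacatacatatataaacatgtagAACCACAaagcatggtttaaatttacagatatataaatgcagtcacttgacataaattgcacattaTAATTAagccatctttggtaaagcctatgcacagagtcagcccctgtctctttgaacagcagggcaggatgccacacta
Dcn and Lum, chr10:97555945-97556144: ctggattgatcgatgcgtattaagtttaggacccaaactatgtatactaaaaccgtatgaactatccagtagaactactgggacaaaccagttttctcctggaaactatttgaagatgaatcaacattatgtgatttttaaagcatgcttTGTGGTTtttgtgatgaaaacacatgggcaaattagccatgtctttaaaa
Ednra, chr8:77660296-77660495: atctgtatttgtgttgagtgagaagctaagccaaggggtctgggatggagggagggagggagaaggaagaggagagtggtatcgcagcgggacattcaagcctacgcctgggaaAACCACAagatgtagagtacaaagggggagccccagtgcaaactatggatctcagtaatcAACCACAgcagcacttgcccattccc
Axin2, chr11:108963328-108963527: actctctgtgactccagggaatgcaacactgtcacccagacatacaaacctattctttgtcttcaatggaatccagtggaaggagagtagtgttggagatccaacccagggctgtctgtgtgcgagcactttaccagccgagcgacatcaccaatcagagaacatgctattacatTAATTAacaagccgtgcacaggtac
Frzb, chr2:80486916-80487115: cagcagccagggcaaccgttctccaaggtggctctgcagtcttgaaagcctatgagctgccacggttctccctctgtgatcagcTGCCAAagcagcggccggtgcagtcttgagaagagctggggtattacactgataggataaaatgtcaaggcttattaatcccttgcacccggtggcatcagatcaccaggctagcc
The regions labelled Foxd1 and Ednra hold the RUNX letters at 2 places, and the region labelled Thbs2 holds them together with the homeobox core. A label names the listed gene, which is not always the nearest. The starts of Foxd1, Ednra and Msx1 lie 93689, 64040 and 56872 bp away. Those of Gm10320, Tmem184c and Cytl1 are nearer to these regions, at 44070, 49698 and 32192 bp. A match in letters does not show that a factor was bound there. Marked letters can lie outside the stretch that the peaks of the 3 mesenchyme libraries share. In the Msx1 region shown these peaks share no base, and in the Thbs2 region they share 8 bp that hold no marked letters. The marked letters also lie outside the shared stretch in the first Lhx8 region, in the Frzb region and at the right-hand place in the Ednra region.

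The mesenchyme-only intergenic regions were short, and the median width of their peaks was much the same in each library. The regions had a median width of 534 bp, against 531 bp for intergenic regions found in at least 2 libraries. They ran from 205 to 1907 bp and together covered 2.07 Mb. Within a single region the peaks could differ more, as in the one closest to Msx1, at 199, 691 and 600 bp in mesenchyme replicates 1 to 3. The median width of the peaks in the regions was 339, 334 and 339 bp in mesenchyme replicates 1, 2 and 3. These values were close to the medians of 338, 335 and 344 bp over all peaks of these libraries. In 3153 regions (88.0%) the peaks of the 3 libraries had at least 1 base in common, with a median shared stretch of 199 bp, and in the other 430 the peaks were joined only in a chain. A region with no epithelium peak is not thereby closed in the epithelium. The nearest epithelium peak was a median of 926 bp away, and 1263 regions (35.2%) had one within 500 bp.

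**Figure D1:**
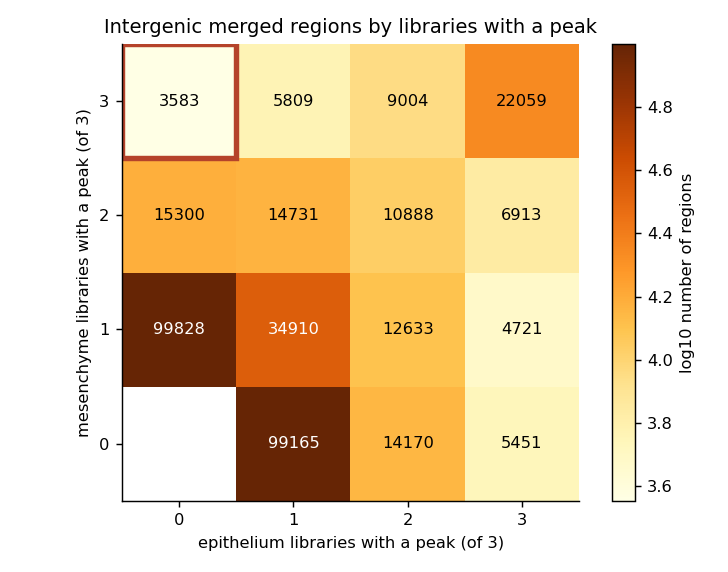
Number of intergenic merged regions by how many of the 3 mesenchyme libraries (vertical axis) and of the 3 epithelium libraries (horizontal axis) had a peak, with colour on a log10 scale. The outlined cell holds the 3583 mesenchyme-only regions, and 22059 regions in the opposite corner had a peak in all 6 libraries.

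The rule set sharp limits on a graded pattern. Just outside it lay 5809 intergenic regions with a peak in 3 mesenchyme libraries and 1 epithelium library, and 15300 with a peak in 2 mesenchyme libraries and no epithelium library, as the grid of library patterns shows. The regions inside it were 2.24% of the 160172 intergenic regions found in at least 2 libraries, which serve as the background throughout, and the mirror class, the epithelium-only intergenic regions, had 5451. Of all mesenchyme-only regions, 47.4% were intergenic, while 3905 had their midpoint in a protein-coding gene and 66 covered a start. Leaving out a library relaxed the rule and gave 5010, 6398 and 5433 regions without epithelium replicate 1, 2 and 3, and 9720, 8435 and 8628 without mesenchyme replicate 1, 2 and 3. The lists held 295141, 341741 and 315468 peaks for mesenchyme replicates 1 to 3 and 270003, 349322 and 296695 for epithelium replicates 1 to 3. Among the epithelium libraries, omitting replicate 2, which had the longest list, added the most regions.

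The regions lay somewhat farther from genes than the background, and less far than their epithelial counterparts. The median distance from the midpoint to the nearest protein-coding start was 48884 bp for the mesenchyme-only regions, 80461 bp for the epithelium-only regions, 43654 bp for the background and 33087 bp for the 22059 regions with a peak in all 6 libraries. A start lay within 100 kb of 2396 of the 3583 regions (66.9%), against 55.3% of the epithelium-only regions and 69.5% of the background, and 1187 regions had none. The region was upstream of its nearest start in 2287 cases (63.8%), against 62.1% in the background. There were 991 regions (27.7%) in gaps of over 500 kb between protein-coding genes, against 2178 of the 5451 epithelium-only regions. The distances spread widely, with 9.01% of the regions within 5 kb of a start and 28.6% between 100 and 500 kb.

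**Figure D2:**
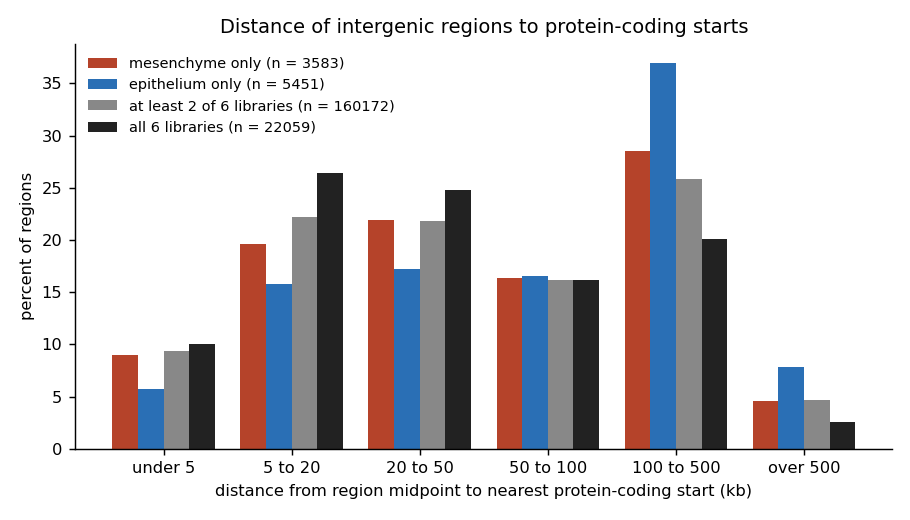
Percent of intergenic regions (vertical axis) by distance in kb from the midpoint to the nearest protein-coding start (horizontal axis), for 4 classes of region. Between 100 and 500 kb lay 28.6% of the mesenchyme-only regions, 36.9% of the epithelium-only regions and 20.1% of those listed in all 6 libraries.

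The letters recognised by RUNX factors had the highest ratio to the background among the searched patterns found in over 1% of the regions. Of the 3583 regions, 400 (11.2%, 95% Wilson interval 10.2 to 12.2%) held TGTGGTT on either strand in the central 200 bp, against 4.55% of the background, 5.47% of the epithelium-only regions and 3.80% of the 22059 regions listed in all 6 libraries. Weighting the background to the same GC content gave 5.20%, so the share in the regions was 2.15 times as high. The same letters in shuffled order were found in 2.37% of the regions and in 2.45% of the background at the same GC content. These intervals cover counting error only, and regions are not replicates of the tissue. In windows of 100 bp, 5.83% and 6.14% of the regions had a RUNX match on the left and the right of the midpoint, and 2.71% and 2.65% had one between 400 and 500 bp away, whereas the background stayed between 2.28 and 2.41% in every window. The profile by distance was added after the share was known.

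**Figure D3:**
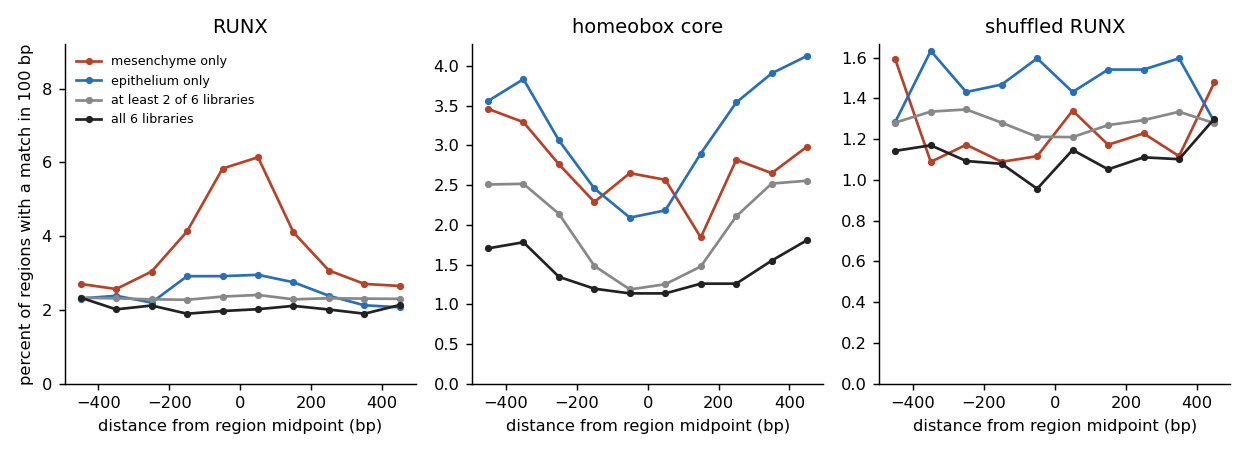
Percent of regions with a match (vertical axis) in each 100 bp window by distance in bp from the midpoint (horizontal axis), for the RUNX letters, the homeobox core and the RUNX letters in shuffled order, in 4 classes of region. For RUNX the mesenchyme-only regions reached 6.14% beside the midpoint and 2.65% at the right edge, and the epithelium-only regions reached 2.95% beside the midpoint.

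The 400 regions with RUNX letters differed from the other members in place and composition. Their median distance to a start was 59750 bp against 48884 bp for all members, whereas background regions with the letters lay at a median of 39236 bp. Their mean GC content was 46.9%, against 50.0% in all members. Of them 7.75% were mostly repeat, a lower share than in all members, against 22.5% of background regions with the letters. The 181 regions with the homeobox core were shifted in the same directions. Their median distance was 76174 bp, their mean GC content 45.6% and their mostly repeat share 9.39%. These traits were thus not particular to the regions with RUNX letters. RUNX and the homeobox core occurred together in 21 regions. The core was in 5.25% of the regions with RUNX letters and in 5.03% of those without, values that lay close together.

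The homeobox core TAATTA was the next of the 4 chosen motifs, in 181 regions (5.05%, 4.38 to 5.82%) against 2.97% of the background at the same GC content, or 1.70 times as high. This share was 3.27% when mesenchyme replicate 1 was left out and 3.28% when 1 epithelium peak was allowed, both close to that background. Its shuffled letters were at 5.27% and 5.31%. The profile of the core had a different form, since the background dipped from 2.51% at the edge to 1.19% left of the midpoint, where the regions were at 2.65%, within their own range of 1.84 to 3.46% over the windows. The half-site of nuclear factor I (NF1) was in 13.9% of the regions and 11.8% of the GC-weighted background, while epithelium-only regions weighted in the same way had 13.9%. The E-box CATCTG, letters bound by Twist-family factors among others, was in 17.9% of both. The regions held fewer matches than the GC-weighted background for the E-box CAGGTG, bound by Snail and Zeb repressors among others, at 12.4% against 18.3%, a gap in percentage points as wide as that for RUNX, and for SOX letters, at 7.59% against 9.25%. Epithelium-only regions, weighted in the same way, had 25.5% and 13.5% for these 2 patterns. MEIS letters had a wider gap in points than SOX, at 12.8% against 15.2%, with 20.1% in the weighted epithelium-only regions. Among the rarer patterns, CRE letters were in 0.502% against 0.299%, PBX letters in 0.865% against 0.534% and FOX letters in 3.94% against 2.85%.

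**Figure D4:**
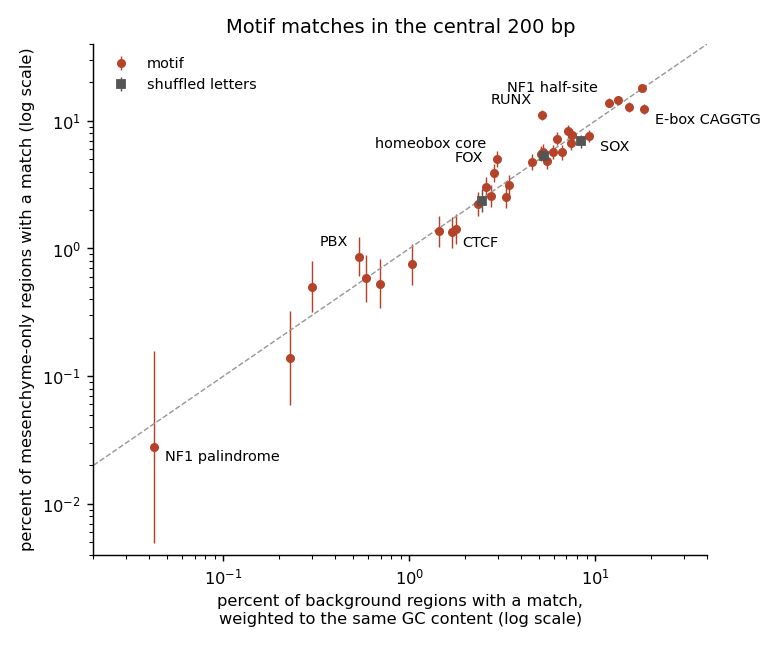
Percent of the 3583 mesenchyme-only regions with a match in the central 200 bp (vertical axis, log scale, bars are 95% Wilson intervals) against the percent of background regions weighted to the same GC content (horizontal axis, log scale), for 34 motifs and 3 shuffled controls. RUNX at 11.2% against 5.20% lies furthest above the dashed line of equal shares among the patterns found in over 1% of regions.

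The motif shares were also compared between libraries in peaks outside the single-tissue regions. In each library the intergenic peaks outside every region listed in 3 libraries of a single tissue were searched in the same way. They still hold near misses of the rule, such as the 15300 regions with a peak in 2 mesenchyme libraries and no epithelium library. The comparison is thus not independent of the graded pattern. RUNX letters were in 4.77, 4.62 and 4.59% of these peaks in mesenchyme replicates 1 to 3 and in 4.35, 4.26 and 4.12% in epithelium replicates 1 to 3. Every mesenchyme library was above every epithelium library, with means of 4.66 ± 0.100% (SD, n = 3) and 4.24 ± 0.116% (SD, n = 3). The two-sided exact permutation p was 0.1, the smallest that 3 against 3 libraries allow, and 0.231 after Benjamini-Hochberg adjustment over 37 letter patterns. Of the 37 patterns, 5 (13.5%) were higher in every mesenchyme library and 11 (29.7%) were lower in every one, so separation of the groups was common. The homeobox core was at 2.18, 2.19 and 2.14% in mesenchyme and at 2.29, 2.24 and 2.11% in epithelium, which overlapped (exact p = 0.5). The E-box CAGGTG was lower in every mesenchyme library, at 19.5 ± 0.0393% against 20.5 ± 0.373% (SD, n = 3 each, exact p = 0.1), and SOX letters at 7.65 ± 0.116% against 8.58 ± 0.222% (SD, n = 3 each, exact p = 0.1). Shuffled homeobox letters were also among the lower patterns, at 3.70% against 4.16%.

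Genes were assigned to a region as the nearest protein-coding start on each side, up to 100 kb. This gave 3000 flanking genes, 17.4% of the 17280 genes that flank any background region, and 591 of them flanked at least 2 and 106 at least 3 of the regions. Epithelium-only regions had 3181 flanking genes. The counts of list genes below are to be read beside these numbers. A gene may flank regions without being acted on by them. Lists of genes were followed for palate mesenchyme transcription factors, mesenchyme matrix, signals and receptors, osteogenic and chondrogenic genes, and epithelial genes. The 210 genes of the first 4 lists together flanked 114 regions (3.18%, 2.66 to 3.81%) against 2.28% of the background and 1.71% of the epithelium-only regions. This interval and those of the single lists cover counting error only. Regions that share a gene are not independent, so the intervals do not decide whether a list differs from the background. For the single nearest start the shares were 4.91%, 3.32% and 4.09% in the same order, so there both classes exceeded the background.

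Transcription factors of the palate mesenchyme flanked 44 regions (1.23%, 0.916 to 1.64%), against 0.840% of the background and 0.569% of the epithelium-only regions. Of the 66 genes, 25 had at least 1 region and 12 had at least 2, while 20 had at least 1 epithelium-only region. Lhx8, a LIM-homeobox factor needed for closure of the palate, had 5 of its 47 background regions in the class and no epithelium-only region. They lay 4326, 24406, 33376, 41925 and 76685 bp from its start, and those at 41925 and 76685 bp hold the RUNX letters shown above. The closest had peaks of 435, 676 and 521 bp in mesenchyme replicates 1 to 3. Msx1, a homeobox factor of palate and tooth, had 3 regions at 41108, 55561 and 56872 bp, the farthest with RUNX letters. In those at 55561 and 56872 bp the peaks of the 3 mesenchyme libraries had no base in common. Tbx3, a T-box factor, had 3 at 37253 to 58883 bp, Dlx6, a homeobox factor that patterns the jaw, 3 at 32698 to 61417 bp, and Twist2, a basic helix-loop-helix factor, 3 at 59520 to 98989 bp. Shox2, Osr1, Hand2, Foxd1, Six2, Snai1 and Ebf3 had 2 each. The nearest of these was a region 7386 bp from Six2, followed by regions 8025 bp from Osr1, a zinc-finger factor of shelf growth, and 8615 bp from Shox2, a homeobox factor of the anterior palate. Hand2 had more epithelium-only regions, 3, than mesenchyme-only ones, while the remaining genes with 2 had none. No base was common to the mesenchyme peaks in the Lhx8 region at 33376 bp, the Tbx3 region at 37253 bp and the Twist2 region at 91833 bp. The same held for the Hand2 region at 75943 bp and the Foxd1 region at 39354 bp.

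Genes of the mesenchyme matrix flanked 24 regions (0.670%, 0.451 to 0.995%) against 0.410% of the background and 0.238% of the epithelium-only regions. Of 42 genes, 16 had a region and 7 had at least 2, while 9 had an epithelium-only region. Thbs2, a secreted matricellular protein that regulates matrix and vessels, had 6, the most of any gene, on both sides of its start and 34323 to 96882 bp away, beside 2 epithelium-only regions. Peaks in the closest measured 409, 225 and 397 bp in mesenchyme replicates 1 to 3. Col6a1, a collagen VI chain, had 3, and 2 of these also flank the neighbouring collagen VI gene Col6a2. Dcn and Lum, small leucine-rich proteoglycans that bind collagen fibrils, share their 2 regions, which lie between them at 9083 and 17733 bp from the start of Lum, and the closer one holds the RUNX letters. Col5a1, a fibrillar collagen, had 2 regions at 44627 and 95010 bp, and Postn, the matricellular protein periostin, 2 at 57231 and 84597 bp. In the Col5a1 region at 95010 bp the peaks of the 3 mesenchyme libraries had no base in common.

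Signals and receptors flanked 37 regions (1.03%, 0.750 to 1.42%) against 0.747% of the background and 0.771% of the epithelium-only regions. Of 68 genes, 21 had a region, fewer than the 26 that had an epithelium-only region. Tgfbr1, the type I receptor for TGF-beta, had 4 at 10327, 11840, 33076 and 58199 bp and no epithelium-only region. Tgfbr2, its type II partner, had 2 of each class, one of the mesenchyme-only regions 2184 bp from its start. In the Wnt pathway, Frzb, a secreted antagonist, had 3 of only 12 background regions, Axin2, a scaffold protein and feedback inhibitor, had 3 of each class, and Rspo1, a secreted enhancer of Wnt signals, and the ligand Wnt11 had 2. The Frzb regions lay 39391, 50976 and 59136 bp away, and the closest had peaks of 199, 280 and 209 bp. Gas1, a Hedgehog co-receptor, had 2, at 2988 and 51097 bp, and in neither did the peaks of the 3 mesenchyme libraries share a base. The peaks also shared no base in the Tgfbr2 region at 97901 bp, the Wnt11 region at 78568 bp and the Rspo1 region at 25332 bp. Bmp6, Efnb2, Ednra, Notch2 and Jag1, a BMP ligand, an ephrin, an endothelin receptor, and a Notch receptor and ligand, had 2 each. Beside these, Notch2 had 3 epithelium-only regions, Bmp6 had 2, Efnb2 and Ednra had 1 each, and Jag1 had none.

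Genes of bone and cartilage flanked 10 regions (0.279%, 0.152 to 0.513%) against 0.375% of the background and 0.128% of the epithelium-only regions. Of 41 genes, 5 had an epithelium-only region and 9 had a mesenchyme-only one. Only Alpl, the alkaline phosphatase of mineralizing tissue, had more than 1, at 9341, 10605 and 34157 bp. Epithelial genes flanked 12 regions (0.335%, 0.192 to 0.585%) against 0.489% of the background and 0.569% of the epithelium-only regions. Of 56 genes, 22 had an epithelium-only region. A mesenchyme-only region was found at 10, and 4 had 2, namely Grhl3, a factor of epidermal differentiation, Wnt10a, and the neighbouring claudin genes Cldn3 and Cldn4, which share both of theirs. Of 24 housekeeping genes 5 had a region and 3 an epithelium-only region, and the list flanked 0.195% of the regions against 0.160% of the background. As a share of each list's own background regions, mesenchyme-only regions were 3.27% for the transcription factors, 3.65% for the matrix, 3.09% for signals, 1.66% for bone and cartilage, 1.53% for epithelial genes and 2.72% for housekeeping genes, against 2.24% over all. Of the 114 regions near the mesenchyme lists 16 (14.0%) held RUNX letters, against 11.2% of all members.

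The genes with the most regions were for the most part outside these lists. After Thbs2, there were 5 each at Lhx8, Pgbd5, BC067074, Tnfsf11, Gm11733 and B4galt5, and 4 each at Capzb, Tgfbr1, Kcnk3, Slc9a8 and Tdrp. Tnfsf11, the cytokine RANKL that drives osteoclast formation, had them at 22362 to 71680 bp. B4galt5, a galactosyltransferase of glycosphingolipid synthesis, and Slc9a8, a sodium-proton exchanger, lie side by side and share 4 regions. In those 26541, 52892 and 58419 bp from the start of B4galt5 the peaks of the 3 mesenchyme libraries had no base in common. The same held for the BC067074 region at 30354 bp, the Tnfsf11 region at 48791 bp, the Gm11733 region at 71358 bp and the Tdrp region at 37851 bp. Capzb, a subunit of the actin capping protein, had all 4 of its regions between 10738 and 23429 bp upstream. Kcnk3 encodes a potassium channel and Pgbd5 a protein derived from a transposase. BC067074 had the closest, 912 bp from its start. Gm11733 flanks 112 background regions, so that its 5 were a small share, whereas Tdrp had 4 of 13.

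The regions were less clustered than the epithelium-only regions. The median spacing to the nearest other member was 134993 bp, against 70726 bp among the 5451 epithelium-only regions, and 338 (9.43%) had another within 10 kb against 15.2%, though the class with more members is the more closely spaced by its number alone. No 100 kb window held more than 5. These were chr5:30576216-30663396, with 5 of 19 background regions beside Kcnk3, Cib4, Slc35f6 and Cenpa, and chr2:169000146-169095283, with 5 of 38 between Zfp64 and Gm11011. The next was chr4:139169245-139182417 upstream of Capzb, with 4 of 8 background regions within 12691 bp. None of the 3 windows held an epithelium-only region. By chromosome, the share of background regions that were mesenchyme-only ran from 1.83 to 2.64% over the autosomes and was 0.950% on the X chromosome, with 41 regions, where epithelium-only regions were 4.82%. The sex of the embryos was not stated. The midpoint lay within a long noncoding RNA gene in 458 regions (12.8%), against 12.5% of the background. A miRNA gene lay within 10 kb of 67 regions (1.87%), against 1.82% of the background.

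The 6 regions with the longest stretch common to the 3 mesenchyme libraries lay near genes of diverse function. The longest shared 1125 bp, with peaks of 1125, 1625 and 1262 bp in replicates 1 to 3, and lay 21460 bp upstream of Rai14, an actin-associated ankyrin-repeat protein, inside a long noncoding RNA gene. The second shared 975 bp and lay 31748 bp from Ccdc93, which takes part in endosomal recycling, and the third shared 966 bp and lay 18980 bp from the zinc-finger gene Zbtb49. The fourth, 28308 bp from Fam216b, shared 865 bp. The fifth shared 839 bp and lay 224790 bp upstream of Sfrp2, a secreted Wnt modulator, beyond the 100 kb limit of the gene assignment. The sixth shared 822 bp and lay 43690 bp upstream of Gdnf, a neurotrophic factor, with 73.5% of its central 200 bp in repeats. All 6 had an epithelium peak outside the region, at 165 bp for the region near Zbtb49 and up to 2162 bp for the region near Gdnf.

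The surroundings of the regions were compared in peaks outside the regions listed in 3 libraries of a single tissue, which again hold near misses of the rule. The mean number of such peaks within 50 kb of a region, scaled to equal list length, was 19.7, 19.8 and 19.9 in mesenchyme replicates 1 to 3 and 18.5, 18.6 and 18.7 in epithelium replicates 1 to 3. The groups did not overlap, with means of 19.8 ± 0.103 and 18.6 ± 0.116 (SD, n = 3 each, exact permutation p = 0.1, two-sided, adjusted p = 0.167 over 15 measures). Around epithelium-only regions the order was turned, at 11.6 ± 0.0864 in mesenchyme and 12.4 ± 0.283 in epithelium, and around all background regions the mesenchyme was higher by a smaller difference, 0.425 peaks against 1.19 around the members. Each of these also had the exact p of 0.1, and the difference between the classes was not tested. The other intergenic peaks lay at median distances of 39140, 39618 and 39289 bp from a start in mesenchyme and 42440, 42587 and 41110 bp in epithelium (exact p = 0.1). The flanking genes' own starts had a peak for 82.7, 83.8 and 84.0% of genes in mesenchyme and 81.6, 84.2 and 81.9% in epithelium, which overlapped (exact p = 0.4). A start open in all 6 libraries was found at 2263 of the 3000 flanking genes (75.4%), against 65.3% of the 17280 genes with a background region. At 6 flanking genes (0.200%) a start was open in the 3 mesenchyme libraries only, against 0.231% of those 17280 genes, and at 6 in the 3 epithelium libraries only.

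**Figure D5:**
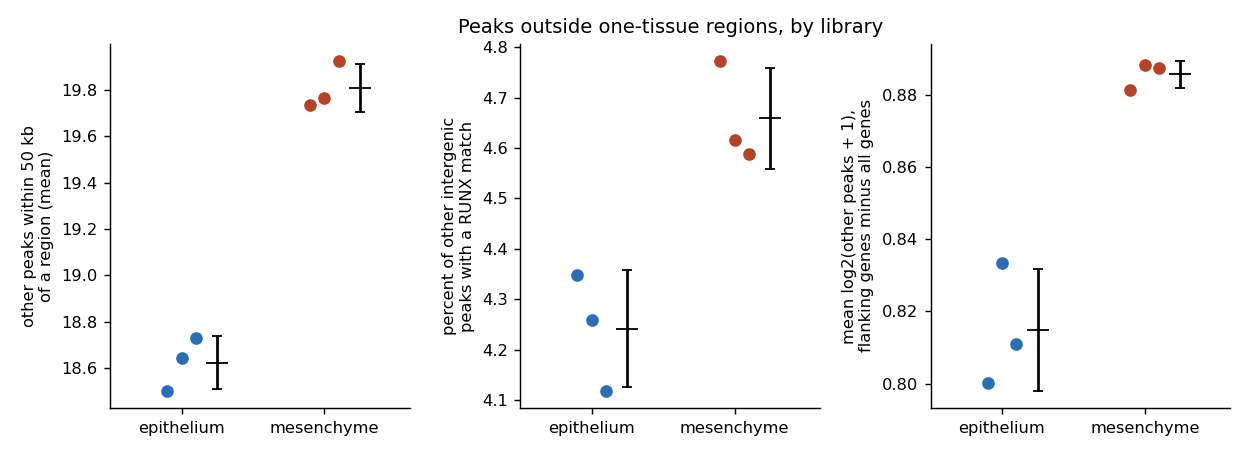
Values of 3 measures of peaks outside the regions listed in 3 libraries of a single tissue, each with a point per library and the mean ± SD (n = 3) beside it: the mean number within 50 kb of a mesenchyme-only region scaled to equal list length, the percent of intergenic peaks with a RUNX match, and the mean log2(peaks + 1) per flanking gene minus that over all genes. In each panel the 3 mesenchyme points lie above the 3 epithelium points, and the axes do not start at 0.

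Gene by gene, the other peaks did not single out any flanking gene. Peaks outside the single-tissue regions were assigned to genes in the same way and compared by limma on log2(scaled peaks + 1). Of 20680 genes, 0 (0%) had more and 0 (0%) had fewer such peaks in the mesenchyme at an adjusted p of 0.05, and hence 0 of the 2991 flanking genes tested. The smallest adjusted p by limma was 0.0896. At an unadjusted p of 0.05, limma gave 1226 genes (5.93%) higher and 863 (4.17%) lower, among the flanking genes 311 (10.4%) and 89 (2.98%), and among the 106 genes with at least 3 regions 19 and 0. The median log2 difference of mesenchyme minus epithelium was 0.02 over all genes, 0.09 over the flanking genes and 0.13 over those with at least 3 regions. The mean log2 level of the flanking genes above that of all genes was 0.88, 0.89 and 0.89 in mesenchyme and 0.80, 0.83 and 0.81 in epithelium (exact permutation p = 0.1). Epithelial genes had a median difference of -0.13, with 3 higher and 9 lower at the unadjusted p, and the mesenchyme matrix 0.15, with 6 and 1. The other lists lay near the median of all genes, at 0.03 for transcription factors, with 4 higher and 0 lower, 0.04 for signals, with 2 and 3, 0.03 for bone and cartilage, with 1 and 2, and 0.04 for housekeeping genes, with 0 and 1.

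Of the 45 genes named here for the most regions, or for at least 2 regions and a place on a list, 38 had more of these other peaks in the mesenchyme on the log2 scale and 7 had fewer. These genes were chosen for their many mesenchyme-only regions, and 53.3% of all genes and 69.4% of genes with at least 2 regions were above 0. By limma 10 reached an unadjusted p of 0.05 and none passed the adjustment, the smallest adjusted p among them being 0.142. For 19 of the 45 the sign turned under at least 1 alternative. Frzb had 18, 19 and 19 peaks in mesenchyme replicates 1 to 3 and 9, 11 and 6 in epithelium replicates 1 to 3. These counts did not overlap, with a log2 difference of 1.00 ± 0.24 (SE) and a limma adjusted p of 0.160. B4galt5 had 87, 99 and 99 against 58, 74 and 59, and its neighbour Slc9a8 69, 75 and 83 against 44, 53 and 51. Their log2 differences were 0.52 ± 0.11 and 0.55 ± 0.12 (SE), with limma adjusted p-values of 0.142 and 0.160.

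Of all 20680 genes, 6.63% had counts, not scaled to list length, that were higher in every mesenchyme library, and 2.76% lower in every one. Among the 2991 flanking genes these were 305 and 40. Being neighbours, B4galt5 and Slc9a8 both count the peaks that lie between them. In 8 of the 45 genes the counts were higher in every mesenchyme library, and in 0 lower in every one. Besides Frzb, B4galt5 and Slc9a8 they were Gm11733, with 119, 132 and 120 peaks in mesenchyme against 93, 117 and 106 in epithelium, the epithelial gene Cldn4, with 18, 23 and 31 against 14, 17 and 16 (log2 difference 0.50 ± 0.21, SE, limma adjusted p = 0.420), Tbx3, with 78, 88 and 84 peaks in mesenchyme against 57, 67 and 68 in epithelium, Pgbd5, with 108, 104 and 111 against 67, 92 and 92, and Col5a1, with 155, 187 and 189 against 115, 150 and 146. The log2 differences of Tbx3, Pgbd5 and Col5a1 were 0.32, 0.31 and 0.31, with limma adjusted p-values of 0.340, 0.343 and 0.254. The largest difference in the other direction was at the ephrin gene Efnb2, with 14, 25 and 18 against 26, 32 and 24, which overlapped, and a log2 difference of -0.59 ± 0.19 (SE, limma adjusted p = 0.285). The counts of Thbs2 overlapped, at 26, 34 and 26 against 22, 32 and 23, as did those of Lhx8, at 47, 58 and 53 against 34, 44 and 53. Their log2 differences were 0.10 ± 0.17 and 0.22 ± 0.15 (SE), and that of Thbs2 turned negative when starts within 50 kb were used. Dlx6 had 14, 19 and 12 against 13, 25 and 14, a log2 difference of -0.22 ± 0.23 (SE) that turned positive with every peak counted. Tgfbr1 had 17, 37 and 24 against 22, 20 and 28, with a log2 difference of 0.04 ± 0.22 (SE) that turned negative when 1 library was left out.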

How the data were processed

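The 6 peak lists, 3 per tissue, were deposited as positions (chromosome, start, end) with no score. Per the labels and methods, the authors used Trimmomatic 0.38 for trimming, Bowtie2 against mm10 for alignment and SAMtools to drop duplicates, kept short nucleosome-free fragments, and called peaks in each library with MACS2 2.1.1; deepTools 2.0 is also named. The threshold was not given in the sources used here, and read depth is unknown.

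Peaks were merged in python 3.11.15 (numpy 2.4.6, pandas 2.3.3) and placed on GENCODE M21 genes. Motifs were searched on both strands of the central 200 bp with pysam 0.24.0, and background shares were weighted over 10 GC classes. Gene by gene, limma 3.58.1 (R 4.3.3) was fitted without a block to log2(peaks + 1), after scaling to the mean list length and dropping genes under a mean of 1 peak, with Benjamini-Hochberg adjustment at 0.05; it was tested on simulated data. Libraries were compared by two-sided exact permutation tests. Named were the 12 genes with the most regions, listed genes with at least 2, flanking genes that passed limma (there were 0), the 6 regions with the longest shared stretch and 3 dense windows; 1 gene that met this rule is not reported here. The members, lists and motifs were chosen with earlier results of these data known. The tests left out the peaks of the members, except in the alternative fit that counted every peak.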

Additional observations from a re-analysis of the deposited data

How the results depend on the processing

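The number of regions was 3583, between 2398 and 3584 under the other overlaps, widths and annotations tried, 9392 when 1 epithelium peak was allowed, and 5010 to 9720 when a library was left out, which relaxes the rule. The median distance of 48884 bp became 42187 bp with 1 epithelium peak allowed, 51879 bp from gene starts alone, 52051 bp from the shared stretch, and 42223 to 48398 bp without 1 library. Chosen after seeing the data, leaving out chromosome 11 gave 52853 bp, keeping regions whose 3 peaks share a base 52015 bp, and leaving out mostly repeat regions 51532 bp, with 2937 regions left. The share with a listed mesenchyme gene, 3.18%, was 1.84% within 50 kb, 7.03% within 500 kb, 4.91% for the single nearest start, 3.40% without mostly repeat regions, and 2.37 to 3.06% without 1 library. The background share was 2.28% within 100 kb, 1.38% within 50 kb, 5.30% within 500 kb and 3.32% for the single nearest start. The lowest share without 1 library, 2.37% without mesenchyme replicate 1, was thus close to the background. Epithelium-only regions had 1.71%, 0.715%, 5.54% and 4.09% at the same settings. They were below the background within 100 and 50 kb and above it at the others. The RUNX share of 11.2% was 7.78% with 1 epithelium peak allowed, 12.4% around the shared stretch, 12.6% without mostly repeat regions, 18.1% in 400 bp, and 7.62 to 9.90% without 1 library. The homeobox core was at 3.28% with 1 epithelium peak allowed, 8.74% in 400 bp, 5.58% without mostly repeat regions and 3.27 to 4.43% without 1 library, the NF1 half-site at 15.2% without mostly repeat regions, 26.0% in 400 bp and 12.3 to 13.8% without 1 library, and the E-box CATCTG at 32.9% in 400 bp and 17.5 to 18.6% without 1 library.

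With every peak counted, the regions of a single tissue included, limma called 57 genes higher and 99 lower, of which 24 and 10 were flanking genes, and the median of flanking genes above all genes was 0.12 in place of 0.06 (0.05 to 0.07 without 1 library). Frzb (1.25), B4galt5 (0.62) and Slc9a8 (0.66) then passed, and the signs turned for Dlx6 (0.091), Col6a2 (0.0046), Wnt11 (0.035), Wnt10a (0.022) and Tgfbr2 (-0.014). Within 50 kb they turned for Thbs2 (-0.23), Foxd1 (-0.014), Col6a1 (-0.016), Tgfbr2 (-0.11) and Wnt10a (0.039), and with no scaling for Col6a2 (0.021), Wnt11 (0.058) and Wnt10a (0.039). Without mesenchyme replicate 3, 8 genes were lower and 0 flanking genes were called, and without any other single library limma called 0 genes in either direction. Leaving out 1 library turned the sign of 17 genes' small differences, none of which had passed, with ranges of -0.0074 to 0.17 for Alpl, -0.081 to 0.14 for Axin2, -0.0040 to 0.090 for Col6a1, -0.10 to 0.035 for Col6a2, -0.0012 to 0.29 for Dcn, -0.012 to 0.29 for Foxd1, -0.047 to 0.26 for Jag1, -0.015 to 0.31 for Msx1, -0.10 to 0.16 for Rspo1, -0.088 to 0.22 for Shox2, -0.012 to 0.10 for Snai1, -0.19 to 0.24 for Tgfbr1, -0.17 to 0.14 for Tgfbr2, -0.11 to 0.10 for Tnfsf11, -0.018 to 0.14 for Twist2, -0.12 to 0.045 for Wnt10a and -0.052 to 0.048 for Wnt11. Whether equal replicate numbers pair the libraries is not stated, and the exact permutation tests took the libraries as unpaired. Correlations of the deviations were 0.021, 0.019 and -0.00041 for equal numbers and ran from -0.023 to 0.0051 for unequal numbers. Values so small cannot show whether there was pairing. The fit with the replicate block called 0 genes higher and 0 lower, with 1282 and 864 at an unadjusted p of 0.05. The causes of these changes were not tested, and depth in reads, which limits what a missing peak means, is unknown.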
